A study of Mus musculus with 8 samples.

Results

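The genes of the proteasome were compared between 4T1 cells that carry SCA1 on their surface and 4T1 cells that lack it. Members were all protein-coding mouse genes whose symbol starts with Psma, Psmb, Psmc, Psmd, Psme or Psmg followed by a digit, leaving out the immunoproteasome subunits Psmb8, Psmb9 and Psmb10. This gave 46 genes, of which 45 were among the 16341 genes counted and 44 were expressed highly enough to be tested. The alpha and beta subunits formed the core particle (16 genes), and the Psmc ATPases with the structural Psmd subunits formed the regulatory particle (17 genes). The others were assembly chaperones, activators and Psmc3ip, a meiotic recombination factor that matches the symbol rule by its letters and is not known as a proteasome subunit.

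RNA-Seq was performed on 2 sorted fractions of 4T1, a transplantable mouse mammary carcinoma line. The 4T1-Sca1+ group had the gate CD45-Sca1+ and the 4T1-Sca1- group had the gate CD45-Sca1-, and both were separated on magnetic columns after staining for SCA1, the protein encoded by Ly6a. The cells were sorted from the parental line, per the source label and the study's account, although the extraction protocol mentions staining of 4T1 tumor, and no treatment, time, age or genotype is given for either group. Each group had 4 libraries, numbered 1 to 4, of 1 cell line. The labels do not say whether these came from separate sorts, so the p-values measure the spread between these libraries, which may be technical. In such bulk RNA, fewer cells expressing a gene and less of its RNA per cell cannot be told apart.

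The proteasome degrades most short-lived, damaged or misfolded proteins of the cell. Its barrel-shaped 20S core is built from stacked rings of alpha and beta subunits, and peptide bonds are cut inside by Psmb5, Psmb6 and Psmb7. The 19S regulatory particle caps the barrel, binds ubiquitin-tagged proteins, removes their ubiquitin chains and unfolds them with a ring of ATPases. Cells that make much protein, tumor cells among them, are known to depend on it. Its genes are known to be raised together by the transcription factor NRF1, encoded by Nfe2l1, when proteolysis falls short.

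Total counts ran from 13561804 to 16968215 per library. Ly6a checked the labels, with 11.0 ± 1.35 CPM (read counts scaled to a common library size; mean ± SD, n = 4) in 4T1-Sca1+ and 0.117 ± 0.113 in 4T1-Sca1- cells. Epithelial keratins and Epcam were abundant in both groups, apart from Krt5, which was at or near 0. The 8 epithelial markers summed to 3587 to 3892 CPM in 4T1-Sca1+ and 3522 to 3787 in 4T1-Sca1- libraries. Within the list Krt8 and Krt18 were higher in 4T1-Sca1+ cells, while Cdh1 (216 against 347 CPM), Krt7 and Krt14 were lower. Epcam and Krt19 were not called. Of 8 leukocyte markers, 6 had at most 10 counts in every library or were not among the genes counted, Ptprc, Itgam and Cd3e included, while Cd74 and Csf1r were higher in 4T1-Sca1+ cells. The leukocyte list summed to 10.6 to 11.7 CPM against 4.88 to 7.31, and the fibroblast list, mostly Pdgfra, to 39.9 to 42.9 against 24.4 to 28.6. The endothelial list summed to 1.83 to 2.30 CPM against 2.32 to 3.29. Which cells the reads of these markers came from, and their part in the differences below, was not tested. One library stood apart: 4T1-Sca1+ replicate 3 differed more from the other 3 of its group (chi-square per degree of freedom 7.02 to 10.1) than any other pair of replicates did (1.92 to 5.68).

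Most proteasome genes of both particles were lower in 4T1-Sca1+ cells. By edgeR's quasi-likelihood test with Benjamini-Hochberg adjustment over all 11717 genes tested, 34 of the 44 tested members (77.3%) fell and 0 rose, where 61.5% of all genes tested were called, 30.2% lower and 31.3% higher. No member was higher at an unadjusted p under 0.05 either, nor by DESeq2 or limma-voom. The median log2 fold change of the members, 4T1-Sca1+ over 4T1-Sca1-, was -0.24, beside 0.01 over all genes tested. The changes were small, from 8.67% to 34.0% lower among the called members, and 10 of 44 fell by 20% or more (4 of the core and 6 of the regulatory particle), where 14.8% of all genes tested did. In 32 members every 4T1-Sca1+ library lay below every 4T1-Sca1- library, a pattern that 26.4% of all genes tested showed. Members were also highly expressed, with a median at the 84.6th percentile of the tested genes. Among the 9020 tested genes at 10 CPM or more, 35.1% fell and 29.2% rose.

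The decline was present in each library and was deepest in the one that stood apart. All members together took 0.645%, 0.635%, 0.586% and 0.628% of the scaled counts in 4T1-Sca1+ replicates 1 to 4, and 0.746%, 0.746%, 0.756% and 0.757% in the 4T1-Sca1- replicates. The groups did not overlap. Of the 44 tested members, 30 had their lowest value of all 8 libraries in 4T1-Sca1+ replicate 3. Without that library 33 members fell, 0 rose and the median log2 fold change was -0.21, where 30.1% of all genes tested were lower. Within its group this library's deviations followed transcript GC content (Spearman's rho across genes 0.61, against -0.38 to -0.19 in the other 3), as did those of 4T1-Sca1- replicate 2 in its group (0.52). With offsets corrected for GC content, 39 members fell, 0 rose and the median was -0.30. The split of all genes moved from 3668 higher and 3538 lower to 3098 higher and 4740 lower (40.5% of genes tested lower). The correction was fitted to each library's deviation from the mean of all 8 libraries, so it also took out any GC trend between the groups.

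**Figure D1:**
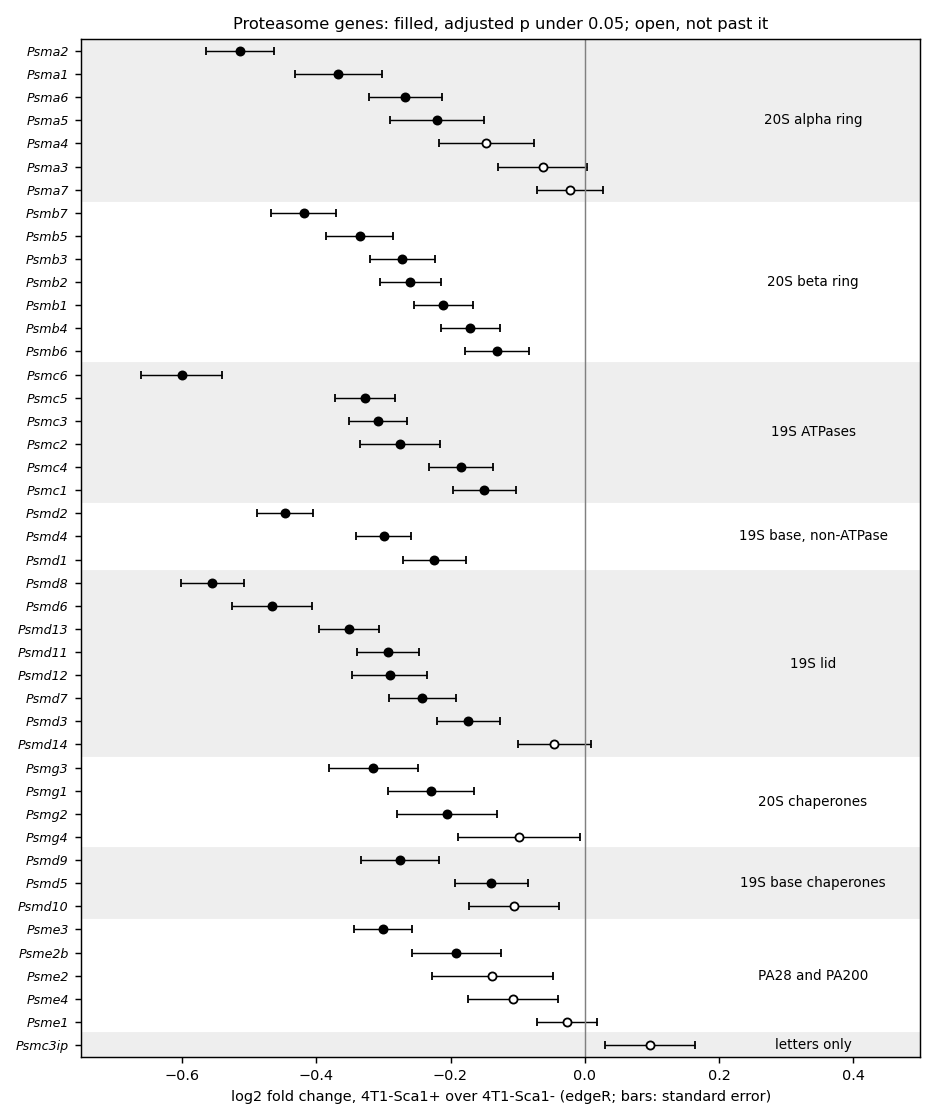
Log2 fold change of each of the 44 tested members (horizontal axis, 4T1-Sca1+ over 4T1-Sca1-, edgeR, 4 libraries per group), in rows grouped by role. Points are estimates, bars are standard errors, filled points passed an adjusted p of 0.05 and open points did not. Of the points, 43 lie left of 0 and 34 are filled, and the exception on the right is Psmc3ip.

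The regulatory particle had a lower median than the core. In the core, 11 of 14 tested genes fell with a median log2 fold change of -0.24. Among the 17 members of the regulatory particle 16 fell with a median of -0.29, where 30.2% of all genes tested were lower. Subunits with other symbols were outside this count. Of the 10 tested subunits and partners of that kind, 8 fell, Adrm1 rose (log2 fold change 0.22) and Sem1 did not pass the test (-0.01). The mean log2 CPM of the regulatory genes exceeded that of the core genes by 0.810, 0.793, 0.810 and 0.780 in the 4T1-Sca1+ replicates and by 0.855, 0.878, 0.855 and 0.860 in the 4T1-Sca1- replicates. This gap was smaller in every 4T1-Sca1+ library, by 0.06 on average, and no test was run on it. The difference between the medians of both particles was -0.05, and it ranged from -0.10 with GC-corrected offsets to -0.03 without 4T1-Sca1+ replicate 4. Summed CPM were 1834 ± 85.4 against 2151 ± 30.9 for the core and 3549.7 ± 139.8 against 4396 ± 34.6 for the regulatory particle (mean ± SD, n = 4).

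**Figure D2:**
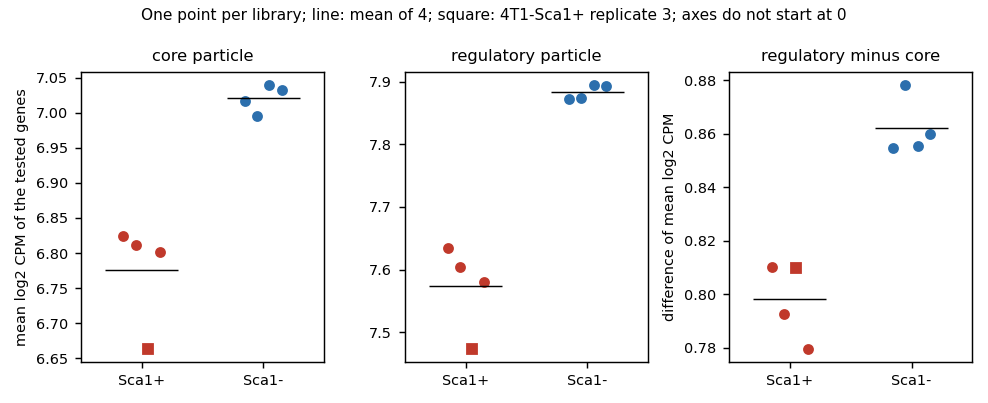
Mean log2 CPM of the tested genes of the core particle (left) and the regulatory particle (middle), and the difference between both (right), in each library; lines are means of 4, squares mark 4T1-Sca1+ replicate 3, and the axes do not start at 0. In all 3 panels the 4T1-Sca1+ libraries lie below the 4T1-Sca1- libraries, and in the right panel they span 0.780 to 0.810 against 0.855 to 0.878.

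**Figure D3:**
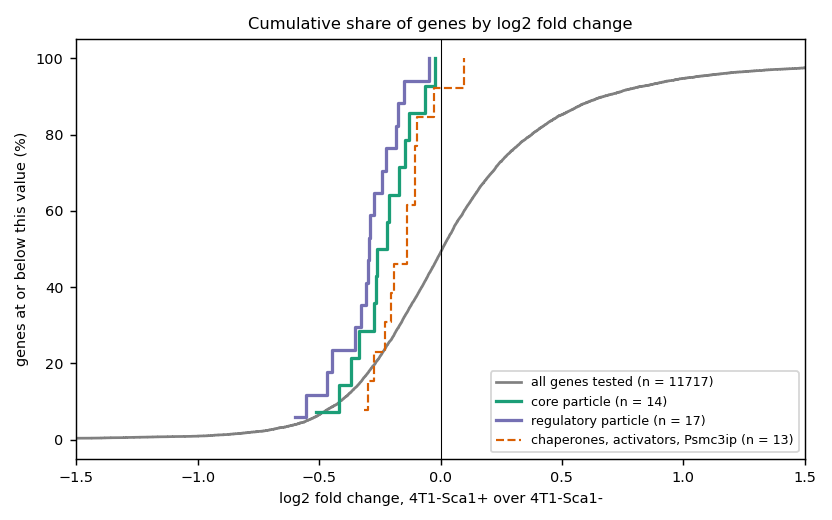
Cumulative share of genes (vertical axis, percent) at or below each log2 fold change (horizontal axis, 4T1-Sca1+ over 4T1-Sca1-) for the core particle, the regulatory particle, the other members and all genes tested; fold changes beyond 1.5 on either side are not drawn. Both particles lie wholly below 0 with medians of -0.24 and -0.29, within a narrow part of the range of all genes.

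The promoters of 5 members are shown because these genes span the range of change, from the member that fell most to one that did not pass the test, and because their windows hold motifs of factors known to act at housekeeping and stress-responsive genes. The sequences are RefSeq windows on GRCm38.p6, from 250 bases before to 50 bases after the annotated start, written 5′ to 3′ on the gene's strand. Capitals mark matches to TGACNNNGC, the core of the antioxidant response element bound by NRF1 and NRF2, or to CCGGAAG, an ETS motif, each searched on both strands with no overlap between matches.
Psmc6 (chr14:45329574-45329873, + strand): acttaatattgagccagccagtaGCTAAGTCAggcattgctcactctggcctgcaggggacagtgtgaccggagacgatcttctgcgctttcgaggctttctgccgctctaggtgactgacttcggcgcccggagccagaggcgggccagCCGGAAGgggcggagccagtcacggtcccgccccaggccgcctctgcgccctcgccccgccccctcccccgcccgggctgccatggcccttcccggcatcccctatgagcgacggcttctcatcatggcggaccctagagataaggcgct
Psmd2 (chr16:20651402-20651701, + strand): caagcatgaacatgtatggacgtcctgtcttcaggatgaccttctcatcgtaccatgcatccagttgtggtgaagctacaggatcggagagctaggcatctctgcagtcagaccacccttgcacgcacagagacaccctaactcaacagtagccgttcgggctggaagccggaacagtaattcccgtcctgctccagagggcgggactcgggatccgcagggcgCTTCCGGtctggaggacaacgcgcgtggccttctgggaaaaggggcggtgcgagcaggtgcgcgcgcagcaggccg
Psmb5 (chr14:54617946-54618245, - strand): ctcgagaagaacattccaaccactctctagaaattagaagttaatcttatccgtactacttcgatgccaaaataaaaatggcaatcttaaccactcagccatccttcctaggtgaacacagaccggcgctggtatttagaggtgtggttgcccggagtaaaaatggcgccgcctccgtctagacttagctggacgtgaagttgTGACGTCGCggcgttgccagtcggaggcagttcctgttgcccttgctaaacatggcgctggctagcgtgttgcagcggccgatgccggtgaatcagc
Psmb6 (chr11:70525107-70525406, + strand): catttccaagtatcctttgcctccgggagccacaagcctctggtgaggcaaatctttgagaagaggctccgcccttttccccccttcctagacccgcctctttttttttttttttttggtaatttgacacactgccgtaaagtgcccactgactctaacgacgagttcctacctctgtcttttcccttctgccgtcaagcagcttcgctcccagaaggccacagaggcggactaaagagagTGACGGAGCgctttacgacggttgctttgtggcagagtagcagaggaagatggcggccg
Psme4 (chr11:30771525-30771824, + strand): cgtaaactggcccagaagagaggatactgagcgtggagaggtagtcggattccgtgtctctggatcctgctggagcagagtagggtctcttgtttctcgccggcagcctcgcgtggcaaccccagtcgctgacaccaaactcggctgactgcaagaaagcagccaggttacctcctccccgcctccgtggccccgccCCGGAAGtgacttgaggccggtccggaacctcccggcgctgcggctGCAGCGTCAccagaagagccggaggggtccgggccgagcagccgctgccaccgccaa
Psmc6 and Psme4 hold both motifs, Psmd2 the ETS motif alone, and Psmb5 and Psmb6 the antioxidant element alone.

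A RefSeq window was found for 38 of the 46 members. The ETS motif was in 15 of them (39.5%), against 21.2% of the 9167 tested genes with a window and 8.86% of all 32851 windows. Of the 15 members with it, 13 fell (median log2 fold change -0.29), and of the 22 tested members without it, 14 fell (median -0.18). Over all tested genes with a window, 33.6% of those with the motif and 29.5% of those without it fell. The antioxidant element core was in 6 windows (15.8%), those of Psmb5, Psmb6, Psmc6, Psmd9, Psmd12 and Psme4, against 17.1% of tested genes and 12.4% of all windows. Of these 6 members 5 fell (median -0.28), and of the 31 without it 22 fell (median -0.22), where 30.4% of all tested genes fell both with and without it. CCAAT, also searched on both strands, was in 14 windows (36.8%), against 43.2% and 37.4%. Here 8 of the 13 tested members with the motif fell (median -0.27) and 19 of the 24 without it (median -0.23), where 28.9% and 31.5% of all tested genes fell. No test was run on these splits. A match of letters is a description of the window and not evidence of binding.

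Psmc6, an ATPase of the 19S base (ENSMUSG00000021832, chr14:45329788-45349705), fell most of all members in the TMM-scaled fit. Its level was 120.0, 114, 96.7 and 112 CPM in 4T1-Sca1+ replicates 1 to 4 and 177, 156, 169.9 and 169 CPM in the 4T1-Sca1- replicates. The highest 4T1-Sca1+ library lay well below the lowest 4T1-Sca1- library. The log2 fold change was -0.60 (SE 0.0604), or 34.0% lower, and edgeR gave an adjusted p = 1.66e-07. All 6 ATPases, which form the ring that unfolds substrates and opens the core, fell without overlap between the groups. Of all genes tested, 26.4% were lower without overlap. Between Psmc6 and the least changed were Psmc5 (-0.33), Psmc3 (-0.31), Psmc2 (-0.28) and Psmc4 (-0.18). Psmc1 fell least, with 233, 245, 225 and 254 CPM against 259, 263, 263 and 277 CPM. Its log2 fold change was -0.15 (SE 0.0469, edgeR adjusted p = 0.0101), and the call was lost when libraries were scaled by their totals alone. Exons of a gene on the opposite strand overlap 8.25% of the exon bases of Psmc3 (Slc39a13), 11.8% of those of Psmb7 (Nek6) and 10.1% of those of Psmd13 (Sirt3). Smaller overlaps were found for Psma4 (4.81%), Psmd1 (3.47%) and Psme1 (0.634%), and a larger one for Psmc3ip (21.2%). The use of strand in the counting is not given in the sources used here, so reads of such pairs may not have been told apart.

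Psmd1 and Psmd2, the large scaffold subunits of the base, and the ubiquitin receptor Psmd4 fell, where 30.2% of all genes tested were lower. Adrm1, a ubiquitin receptor outside the member list, rose and is described below. Psmd2, a scaffold that docks shuttle proteins and the most highly counted member (ENSMUSG00000006998, chr16:20651652-20663414), had 443, 435, 409 and 432 CPM in 4T1-Sca1+ and 574, 599, 569 and 600.2 CPM in 4T1-Sca1- libraries. The groups were far apart relative to the spread within each, with a log2 fold change of -0.45 (SE 0.0421, edgeR adjusted p = 7.55e-08). Of the 50-base words of the Psmd2 transcript, 26.4% recur in other annotated transcripts, mostly in the pseudogene Gm5422. Some of its reads may thus have been split or dropped in counting. Psmd4, a subunit that binds ubiquitin chains, had 206, 204, 196 and 202 CPM against 245, 254, 252 and 245 CPM, a log2 fold change of -0.30 (SE 0.0413, edgeR adjusted p = 6.78e-06). Psmd1, the other large scaffold, had 293, 298, 259 and 291 CPM against 337, 333, 332 and 331 CPM. It fell by 0.22 on the log2 scale (SE 0.0469, edgeR adjusted p = 0.000486). Neither Psmd4 nor Psmd1 overlapped between the groups, where 26.4% of all genes tested were lower without overlap.

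In the lid, whose subunits hold and position the deubiquitinating enzyme of the particle, 7 of 8 member genes fell. Of all genes tested, 30.2% were lower. Psmd8 (ENSMUSG00000030591, chr7:29174188-29180701) stood at 262, 239, 234 and 230.0 CPM in 4T1-Sca1+ and at 346, 357, 364 and 349.7 CPM in 4T1-Sca1- libraries. It was lower by 31.9%, the second deepest decline of all members, with a log2 fold change of -0.55 (SE 0.047, edgeR adjusted p = 1.99e-08). Psmd6 (-0.47), Psmd13 (-0.35), Psmd11 (-0.29), Psmd12 (-0.29) and Psmd7 (-0.24) followed. Psmd3 fell least of the called lid genes, with 349.8, 330.1, 374 and 342 CPM against 389.7, 415, 382 and 388 CPM. The groups of Psmd3 came close to each other without overlapping (log2 fold change -0.17, SE 0.0469, edgeR adjusted p = 0.00384). Psmd14, the metalloprotease that cuts ubiquitin chains off substrates, did not pass the test, with 140.3, 142, 119 and 139 CPM against 139, 137, 143 and 139.9 CPM (log2 fold change -0.05, SE 0.0542, edgeR adjusted p = 0.483). Its low value came from 4T1-Sca1+ replicate 3, and without that library its log2 fold change was 0.0071. Psmd7, which pairs with Psmd14 in the intact particle, had 239, 244, 213 and 245 CPM against 276, 273, 291 and 273 CPM, with no overlap.

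All 7 tested genes of the beta ring fell, with no overlap between the groups, where 26.4% of all genes tested were lower without overlap. Among the catalytic subunits, Psmb7, which cuts after basic residues (ENSMUSG00000026750, chr2:38588036-38644087), had 170.0, 171, 154 and 179 CPM in 4T1-Sca1+ and 223, 221, 225 and 232 CPM in 4T1-Sca1- libraries. The log2 fold change was -0.42 (SE 0.0484, edgeR adjusted p = 8.86e-07), with the limit that some of its exon bases overlap Nek6 on the opposite strand. Psmb5, which cuts after hydrophobic residues and is the main target of proteasome inhibitors (ENSMUSG00000022193, chr14:54614119-54618022), had 57.5, 56.3, 58.8 and 57.9 CPM against 70.7, 73.3, 70.0 and 76.8 CPM. Its 4T1-Sca1+ values were nearly the same in all 4 libraries, with replicate 3 the highest, and the log2 fold change was -0.34 (SE 0.0493, edgeR adjusted p = 1.39e-05). Psmb6, which cuts after acidic residues (ENSMUSG00000018286, chr11:70525367-70527858), had 171, 171, 156 and 154 CPM against 173, 182, 176 and 183 CPM. Its groups nearly touched, and it was the least changed of all called members at 8.67% lower (log2 fold change -0.13, SE 0.048, edgeR adjusted p = 0.025). The call for Psmb6 was lost under 4 alternatives, library totals, upper-quartile scaling, and leaving out replicate 4 of either group. The structural subunits Psmb3 (-0.27), Psmb2 (-0.26), Psmb1 (-0.21) and Psmb4 (-0.17) lay between these. Much of the transcripts of Psmb5 (57.1% of its 50-base words) and Psmb3 (55.8%) recurs in other annotated transcripts, mostly pseudogenes. Smaller shares recur for Psma4 (25.6%), Psmg3 (22.7%), Psma3 (22.0%), Psmc1 (17.6%), Psme1 (14.1%) and Psmd11 (14.0%). Reads of these genes may have been split or dropped in counting. Psmb11, the beta subunit of thymic epithelium, had 1 read in 1 4T1-Sca1+ library and 0 elsewhere and was not tested.

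**Figure D4:**
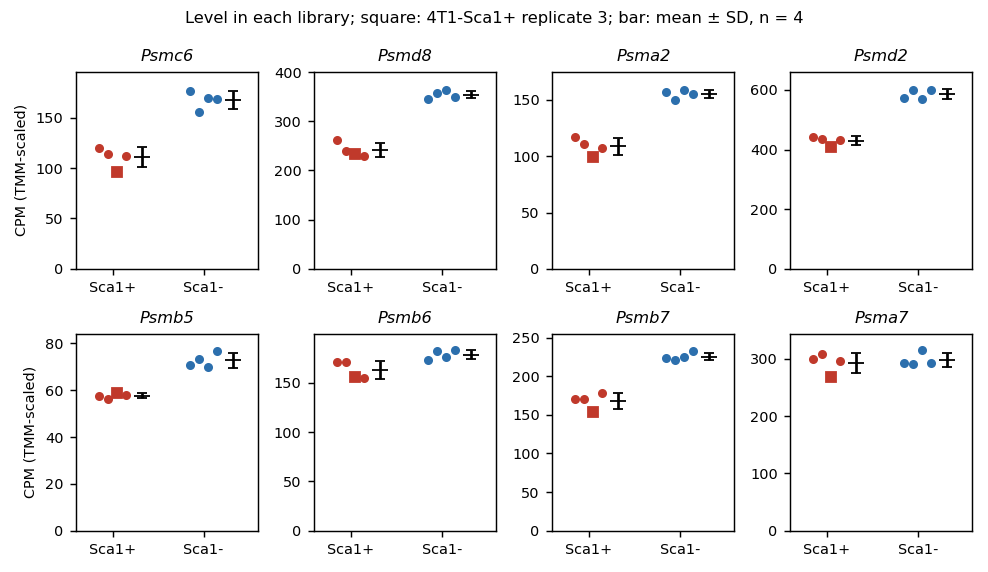
Level in CPM (vertical axes from 0) of 8 members in each 4T1-Sca1+ (red) and 4T1-Sca1- (blue) library, with mean ± SD of 4 beside the points and a square for 4T1-Sca1+ replicate 3. Psmc6, Psmd8, Psma2, Psmd2, Psmb5 and Psmb7 are separated by a wide gap, Psmb6 by a narrow one, and Psma7 overlaps.

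In the alpha ring 4 of 7 tested genes fell and 3 did not pass the test, where 30.2% of all genes tested were lower. Psma2 (ENSMUSG00000015671, chr13:14613240-14674236) had 117, 111, 99.4 and 108 CPM in 4T1-Sca1+ and 157, 150.0, 158 and 156 CPM in 4T1-Sca1- libraries. It fell most in the core, with a log2 fold change of -0.51 (SE 0.051, edgeR adjusted p = 1.44e-07) and no overlap. Psma1 (-0.37) and Psma6 (-0.27) also fell. Psma5 had 26.2, 25.6, 22.5 and 28.3 CPM against 30.2, 29.1, 30.6 and 29.9 CPM, a small separation with no overlap (log2 fold change -0.22, SE 0.07, edgeR adjusted p = 0.0111). The alpha subunits form the gate of the barrel, and 54.5% of the 50-base words of Psma5 recur in other transcripts. Psma4 (-0.15), Psma3 (-0.06) and Psma7 (-0.02) did not pass the test. Psma7, the most abundant of the ring by CPM per kilobase, had 299, 308, 268 and 296 CPM against 292, 289.9, 315 and 292 CPM, with the groups overlapping. Its sign turned under 4 alternatives, all uncalled. Psma8, its testis counterpart, was not among the genes counted.

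Levels per kilobase of the main transcript differed most within the alpha ring. In 4T1-Sca1- cells the alpha subunits ran from 14.8 CPM per kilobase for Psma3 to 325 for Psma7, the beta subunits from 80.9 for Psmb5 to 224 for Psmb6, and the ATPases from 75.2 for Psmc6 to 211 for Psmc3. The proteins of a ring are present in equal numbers in the particle. These levels depend on which transcript was taken as the main one and on reads shared with pseudogenes. Across the 44 tested members the log2 fold change had a Spearman's rho of -0.28 with the mean CPM and of 0.11 with transcript GC content. Across all genes tested its rho with GC content was 0.28. These are descriptions over genes of the same 8 libraries.

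Among the chaperones, 3 of 4 that build the core and 2 of 3 that build the base fell. Of all genes tested 30.2% were lower, as were 35.1% of those at 10 CPM or more. Of the 4 Psmg genes, whose products assemble the alpha ring in pairs, Psmg3, Psmg1 (-0.23) and Psmg2 fell and Psmg4 (-0.10, edgeR adjusted p = 0.361) did not pass the test. Psmg3 had 31.4, 30.4, 32.4 and 27.1 CPM against 37.7, 35.2, 39.8 and 38.3 CPM, with no overlap and a log2 fold change of -0.32 (SE 0.0664, edgeR adjusted p = 0.000517). Psmg2 had 20.2, 19.4, 22.0 and 19.1 CPM against 24.8, 20.9, 23.8 and 23.4 CPM. Its groups overlapped through replicate 3 of 4T1-Sca1+ and replicate 2 of 4T1-Sca1- (log2 fold change -0.21, SE 0.0741, edgeR adjusted p = 0.023). Of the chaperones that join the ATPases into a ring, Psmd9 had 51.5, 49.4, 55.2 and 56.3 CPM against 62.5, 69.7, 60.7 and 64.2 CPM. The groups did not overlap, with a log2 fold change of -0.28 (SE 0.0587, edgeR adjusted p = 0.000575). Psmd5 had 117, 117, 101 and 111 CPM against 121, 115, 127 and 128 CPM, overlapping through 4T1-Sca1- replicate 2 (log2 fold change -0.14, SE 0.0545, edgeR adjusted p = 0.0341). The calls for Psmg2 and Psmd5 were lost under 6 and 7 of the 17 alternatives. Psmd10, known as gankyrin, had a log2 fold change of -0.11 and did not pass the test.

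Of the 5 activator genes, whose products cap the core in place of the regulatory particle, 2 fell and 3 did not pass the test, a share near the 30.2% of all genes tested that were lower and the 35.1% of those at 10 CPM or more. Psme3, the nuclear PA28 gamma, had 230.3, 220.4, 212 and 232 CPM in 4T1-Sca1+ and 282, 267, 277 and 276 CPM in 4T1-Sca1- libraries. It fell with no overlap (log2 fold change -0.30, SE 0.0439, edgeR adjusted p = 1.28e-05). Psme1, the interferon-inducible PA28 alpha, had 107, 104, 104 and 99.8 CPM against 103, 105, 109 and 106 CPM, and the groups overlapped (log2 fold change -0.03, SE 0.0445, edgeR adjusted p = 0.623). Psme4, the nuclear PA200, had 122, 125, 97.5 and 116 CPM against 135, 117, 122 and 122 CPM, with overlap (log2 fold change -0.11, SE 0.0671, edgeR adjusted p = 0.18). Its lowest value was again in 4T1-Sca1+ replicate 3.

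PA28 beta, the partner of PA28 alpha, is encoded by Psme2, and Psme2b is a closely similar gene with which it shares much of its sequence. Psme2 had 20.6, 15.6, 16.3 and 16.8 CPM against 18.3, 17.8, 19.1 and 21.3 CPM (log2 fold change -0.14, SE 0.0906, edgeR adjusted p = 0.199). Psme2b had 76.8, 77.0, 60.8 and 73.0 CPM against 81.4, 77.4, 86.7 and 83.2 CPM (log2 fold change -0.19, SE 0.0664, edgeR adjusted p = 0.0187). The groups of Psme2 overlapped and those of Psme2b nearly touched. Since 59.3% of the 50-base words of Psme2 and 69.3% of those of Psme2b recur in other transcripts, mostly in each other, the division of reads between them is uncertain. Their sum was 89.2 ± 8.67 CPM in 4T1-Sca1+ and 101 ± 4.79 CPM in 4T1-Sca1- cells (mean ± SD, n = 4), from 77.1 to 97.4 against 95.3 to 106, so the summed levels overlapped.

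Psmc3ip, the exception by its letters, was the only tested member with a positive log2 fold change, 0.10 (SE 0.0675, edgeR adjusted p = 0.225). Its levels were 26.0, 26.9, 25.9 and 27.6 CPM against 23.1, 27.5, 23.9 and 25.1 CPM, and the groups overlapped. Without it, 34 of 43 members fell, where 30.2% of all genes tested were lower. Over the 27 tested members with at most 10% of their 50-base words in other transcripts and at most 1% of exon bases overlapped by another counted gene, 22 fell and the median log2 fold change was -0.24. In that subset 7 of 8 core genes (median -0.24) and 10 of 11 regulatory genes (median -0.29) fell. Beside these counts stand the same 30.2% of all genes tested and 35.1% of those at 10 CPM or more.

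The order of the members depended on the handling of GC content. With GC-corrected offsets Psmd8 fell most (log2 fold change -0.68), ahead of Psmb5 (-0.57), Psmd2 (-0.53) and Psmc3 (-0.50), and Psmc6 stood at -0.49. Psmb4 (-0.29), Psmb6 (-0.23), Psmc4 (-0.30) and Psmd3 (-0.38) also moved away from 0 by more than 1.5 times. Psma7 (-0.28), Psme1 (-0.25), Psme2 (-0.27), Psmg4 (-0.30) and Psma4 (-0.12), which had not passed the test, were called lower. Psma3 (0.013), Psmd14 (0.0018) and Psmc3ip (0.043) stayed uncalled and did not lie below 0, and Psmd10 and Psme4 stayed uncalled below 0. All 6 ATPases, 3 other base subunits and 7 beta subunits were lower in this fit as well, where 40.5% of all genes tested were lower. Leaving out 4T1-Sca1+ replicate 3 moved Psme2b to -0.12, still called. Psma4 was also called lower without the low-count filter and without 4T1-Sca1+ replicate 4, and Psme2 without 4T1-Sca1+ replicate 1.

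Subunits and partners of the proteasome that carry other symbols were counted next. Of 10 tested genes, 8 fell and 1 rose (median log2 fold change -0.20), where 30.2% of all genes tested were lower and 31.3% higher. Sem1 did not pass the test (log2 fold change -0.01, edgeR adjusted p = 0.874). The number lower ran from 6, without 4T1-Sca1- replicate 3, to 8 across settings. The deubiquitinating enzymes Uchl5 and Usp14, which dock on the regulatory particle, fell by 0.82 and 0.49 on the log2 scale. Uchl5 had 55.1, 49.8, 40.1 and 56.4 CPM in 4T1-Sca1+ and 96.1, 85.9, 92.9 and 81.4 CPM in 4T1-Sca1- libraries, with a wide gap between groups (SE 0.0832, edgeR adjusted p = 1.82e-07). Adrm1, the ubiquitin receptor that recruits Uchl5, rose, with 59.8, 56.4, 66.7 and 58.3 CPM against 49.1, 56.4, 52.4 and 48.6 CPM (log2 fold change 0.22, SE 0.0633, edgeR adjusted p = 0.00547). The groups of Adrm1 met at 56.4 CPM without overlapping, and with GC-corrected offsets its log2 fold change was 0.016 and the call was lost. The 3 deubiquitinating enzymes of the particle, Uchl5, Usp14 and Psmd14, ranged from -0.82 to -0.05 in log2 fold change.

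The immunoproteasome subunits replace the catalytic beta subunits in immune cells and after interferon. Of the 3, 1 was higher and 0 were lower in the reported fit, where 31.3% of all genes tested were higher and 30.2% lower. With GC-corrected offsets 0 were higher and 1 was lower. Psmb8 rose, with 29.4, 34.7, 30.9 and 33.8 CPM against 27.8, 27.5, 27.9 and 25.5 CPM (log2 fold change 0.24, SE 0.0672, edgeR adjusted p = 0.00433). With GC-corrected offsets its log2 fold change was 0.12 and the call was lost. Its constitutive counterpart Psmb5 was lower in the same 4T1-Sca1+ libraries. Psmb9 (0.31, edgeR adjusted p = 0.18), at 2.93 against 2.33 CPM, and Psmb10 (-0.07, edgeR adjusted p = 0.299) did not pass the test, although Psmb10 was lower with GC-corrected offsets (-0.31). Of the 8 leukocyte markers, Cd74 and Csf1r moved in the direction of Psmb8. The other 6 had at most 10 counts in every library or were not among the genes counted. Any part of leukocyte RNA in the rise of Psmb8 was not tested.

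Genes linked to the control of the proteasome, transcription factors and others, were called in both directions, with 5 of 12 higher and 3 lower. These shares were near the 31.3% higher and 30.2% lower among all genes tested. Across settings 3 to 6 were higher and 2 to 4 lower. Nfe2l1, which encodes NRF1, had 477, 466, 479 and 488 CPM against 483, 501, 479 and 501 CPM, overlapping between groups (log2 fold change -0.04, SE 0.04, edgeR adjusted p = 0.406). With GC-corrected offsets Nfe2l1 was lower, with a log2 fold change of -0.22. Nfe2l2, which encodes NRF2, the regulator of antioxidant genes, rose the most of the list, with 179, 182, 158 and 178 CPM against 101, 94.1, 102 and 99.8 CPM. The lowest 4T1-Sca1+ library lay far above every 4T1-Sca1- library (log2 fold change 0.81, SE 0.0521, edgeR adjusted p = 5.1e-10). Zfand2a, a proteasome-associated protein induced by proteotoxic stress, fell the most (log2 fold change -0.46, SE 0.0529, edgeR adjusted p = 9.12e-07).

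Upstream of the proteasome, 4 of 6 ubiquitin genes and E1 enzymes fell and 0 rose (median log2 fold change -0.25), where 30.2% of all genes tested were lower and 31.3% higher. Rps27a, a ubiquitin fused to a ribosomal protein, fell the most (log2 fold change -0.55), at 28.3, 24.9, 23.0 and 23.1 CPM against 37.7, 35.7, 36.7 and 35.9 CPM. Uba1, the main ubiquitin-activating enzyme, had the smallest called decline (-0.15, or -0.26 with GC-corrected offsets). Shuttle factors and p97 cofactors, which carry ubiquitinated proteins to the proteasome, fell in 8 of 10 genes and rose in 1 (median log2 fold change -0.29), beside the same 30.2% and 31.3% of all genes. The number lower ran from 6 to 9 across settings, with 6 under library totals, under upper-quartile scaling and without 4T1-Sca1- replicate 2. Ubqln1 fell the most (log2 fold change -0.50), with 177, 167, 154 and 159 CPM against 239, 227, 229 and 236 CPM. Its paralog Ubqln2 rose (log2 fold change 0.57), with 21.9, 21.5, 27.4 and 23.7 CPM against 18.5, 15.4, 14.0 and 15.6 CPM. The groups of both ubiquilin genes were fully separated, in opposite directions.

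**Figure D5:**
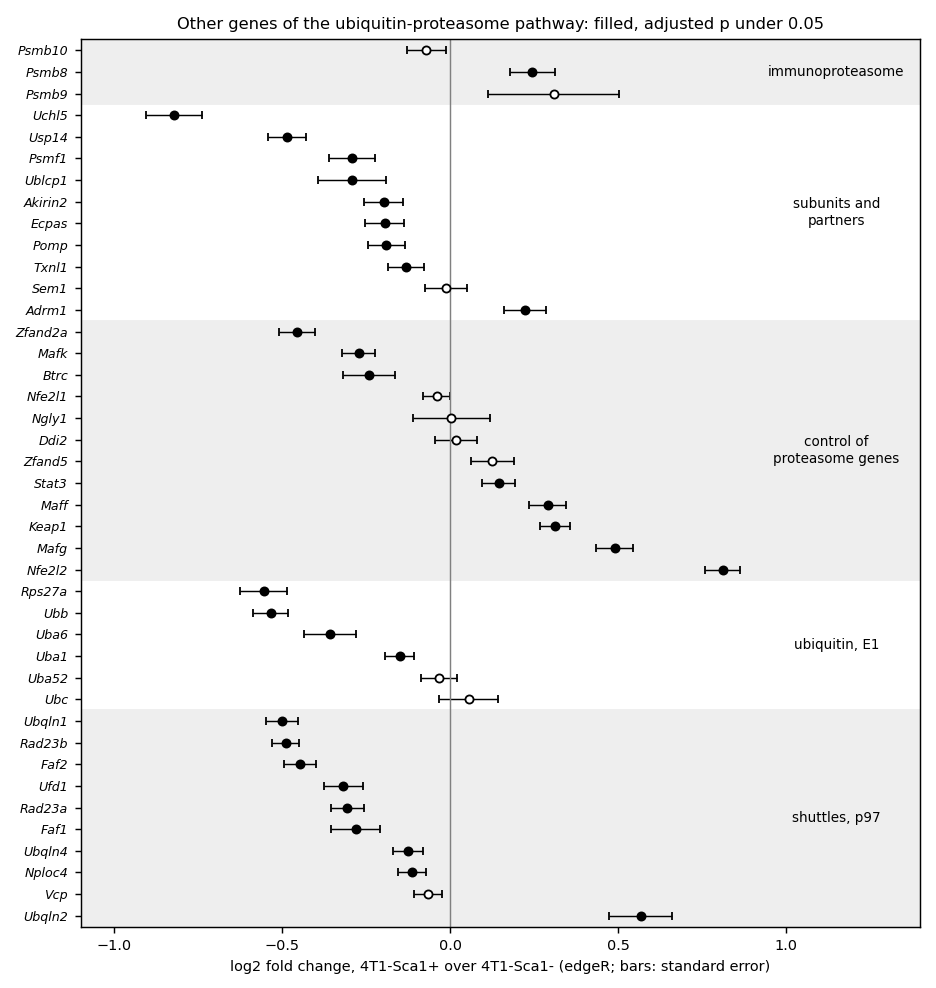
Log2 fold change (horizontal axis, 4T1-Sca1+ over 4T1-Sca1-, edgeR, bars standard errors) of the other tested genes of the pathway, in rows by list; filled points passed an adjusted p of 0.05. Partners, ubiquitin genes and shuttle factors lie mostly left of 0 with Adrm1 and Ubqln2 on the right, whereas the control genes spread from -0.46 for Zfand2a to 0.81 for Nfe2l2.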

How the data were processed

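RNA was isolated from sorted 4T1-Sca1+ and 4T1-Sca1- cells and made into libraries with an Illumina TruSeq RNA kit, per the labels. The raw counts that the authors deposited, 1 row per Ensembl gene, were used, and their normalized table was not. The submitters' processing notes name cutadapt 1.16, STAR 2.5.3a and GRCm38, with no role or order, while the counting tool, annotation and use of strand are not given in the sources used here. No column of another sample was present.

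Symbols, positions and transcripts came from GENCODE M21 on GRCm38 by Ensembl ID (16202 of 16341 genes matched), and promoters from RefSeq. Counts were tested with edgeR 4.0.16 in R 4.3.3: filterByExpr, TMM scaling and the two-sided quasi-likelihood test, with no covariate, over all genes kept. An adjusted p (Benjamini-Hochberg) under 0.05 was called. The standard error is the absolute log2 fold change divided by the square root of F. CPM used TMM-scaled library sizes, and the mean log2 CPM of the particles took the log of these values with no prior count. A prior count of 2 was used for the GC-corrected offsets and the check of replicate numbers. With 4 libraries per group the common biological coefficient of variation was 0.0541. Reads carried no molecular identifiers, so PCR copies may be among them and depth bears on counting error only.

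Values in every library were given for the 3 most and least changed called members, the extremes of each role group, the catalytic subunits, Psme1, Psme2, Psme3, Psme4 and Psmd4. Of the other lists, the highest and lowest called gene, the immunoproteasome subunits and Nfe2l1 were named. Psma7, Psmd7, Psmd14 and Psmc3ip (library values), Usp14 and Sem1 were added after their values were seen. The members, lists and tests were chosen with earlier results of these data known. Replicate numbers did not pair the libraries (correlation of deviations -0.15 to 0.0957). Alternatives were DESeq2 1.42.0, limma-voom (limma 3.58.1), other scalings and filters, GC-corrected offsets, a replicate block, stricter thresholds and leaving out each library.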

Additional observations from a re-analysis of the deposited data

Results flagged for a closer look

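In 88 checks of 4 libraries for 1 value far from the other 3 (Dixon's test), 6 values were flagged, and chance flags about 1 in 20 such checks, or 4.4 of these. Psma7 stood at 315.3 CPM in 4T1-Sca1- replicate 3, with the others at 289.9 to 292.3. Psmd7 was at 290.8 CPM in that same library, against 272.6 to 275.7. Psmb4 was low in 4T1-Sca1- replicate 4, at 221.2 CPM against 225.5 to 226.1, and so was Psmg4, at 13.7 CPM against 16.0 to 16.3. Psmd10 was high in 4T1-Sca1- replicate 1, at 35.1 CPM against 33.7 to 33.8. Psmd14 was low in 4T1-Sca1+ replicate 3, at 118.7 CPM against 139.5 to 141.6, and this is the library that stood apart over all genes. Leaving out the library concerned turned the sign of Psma7 and Psmd14, neither of which passed the test with it.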

How the results depend on the processing

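No member was called higher under any setting run. At an adjusted p under 0.05, between 29 (library totals alone) and 39 (GC-corrected offsets) were called lower, against 34 in the reported fit. The shares of all genes tested that were lower in these settings were 25.5%, 40.5% and 30.2%, in the same order. In the reported fit, an adjusted p under 0.01 left 28 members lower, and the share of all genes at that threshold is not given here. Leaving out each library in turn gave 31 to 35 lower and 0 higher, where 27.8% to 30.1% of all genes tested were lower. The medians in these fits were -0.26 to -0.21 over the members and over the core and -0.31 to -0.27 over the regulatory particle. GC-corrected offsets moved the members' median to -0.2957 and that of the regulatory particle to -0.3781, and they moved the median of all genes to -0.06. Asking for a decline of 20% or more as well as an adjusted p under 0.05 left 10 members lower, and 14.8% of all genes tested. The members' median minus that of all genes stayed between -0.27 and -0.22. Of the 34 called members, 29 kept the call under all 17 alternatives, while Psmb6, Psmc1, Psmd5, Psme2b and Psmg2 lost it in at least 1, and none of the 34 turned its direction. Only members that were not called changed sign: Psma3 to 0.0128 and Psmd14 to 0.0018 with GC-corrected offsets, Psma7 to 0.0203 and Psme1 to 0.0163 with library totals, Psma7 to 0.0065 and Psme1 to 0.0028 with upper-quartile scaling and, when single libraries were left out, Psma7 (-0.0481 to 0.0139) and Psmd14 (-0.0695 to 0.0071), where Psma7 turned without replicate 3 of 4T1-Sca1+ or, to 0.0043, of 4T1-Sca1-, and Psmd14 without replicate 3 of 4T1-Sca1+. Nfe2l1, also not called, turned to 0.0034 with library totals. The cause was not tested. Of the 10 other pathway genes named and called, 8 kept the call under every alternative, and Psmb8 and Adrm1 lost it with GC-corrected offsets. With the replicate number as a block, 33 members were lower and 0 higher and Psmd5 lost its call, where 29.5% of all genes tested were lower. Only 1 of 8 libraries correlated best with its own number, so the numbers were not taken as pairs. Psmg4, Psme2 and Psmg2, with group means of 14.6 to 23.2 CPM, had the largest standard errors of the members, and the effect of depth was not tested.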
